A study of Mus musculus with 64 samples.

Results

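Profibrotic ligands, matricellular genes and their partners were followed through mouse hearts that carried a cardiomyopathy transgene, trained or rested. The 10 genes were chosen by name, out of 16913 genes in the count table: the ligands Tgfb2 and Tgfb3, the matrix protein Ltbp2, the matricellular genes Postn, Ccn2, Thbs4 and Spp1, the fibronectin gene Fn1, the crosslinking enzyme Lox and the protease inhibitor Timp1. They were chosen with earlier results of these data known. All 10 passed the filter on low counts. The study compared C57BL/6J mice that carry the cardiac troponin T deletion cTnT-delta160E (TG), a model of hypertrophic cardiomyopathy, with mice without it (nTG), in both sexes. Trained mice ran high intensity interval training on a treadmill for 6 weeks, on 3 days a week, in sessions of 31 minutes alternating 4 fast intervals (85%) with 4 slow ones (50%), as shares of the mean speed reached in an exercise test, and sedentary mice did not exercise. Ages, the promoter of the transgene and the number of founder lines are not given in the sources used here. Total RNA of heart samples was sequenced after ribosomal RNA depletion in 64 libraries, which the labels number as biological replicates: 7 nTG sedentary male, 9 TG sedentary male, 8 nTG trained male, 8 TG trained male, 8 nTG sedentary female, 8 TG sedentary female, 10 nTG trained female and 6 TG trained female, while the study's text gives 7 to 9 a group.

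Transforming growth factor beta is secreted in a latent form that is stored in the matrix and freed by proteases and integrins. Free ligand signals through paired receptor kinases and SMAD proteins, and in heart fibroblasts it raises the output of matrix, of matricellular proteins and of protease inhibitors. Matricellular proteins sit in the matrix and signal to cells without building fibres themselves. The group is best known in the heart for its rise in pressure overload, after infarction and in cardiomyopathy.

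Promoter windows are shown for the members on which the results turn. They are a description, and no link between motifs and expression was tested. RefSeq (GRCm38.p6) windows of 300 bases, from 250 before to 50 after a transcription start, were used for 6 of the 10 members, in 8 windows. No window was found for Ccn2, Tgfb3 and Fn1, and Lox was left out. The windows of Postn and Spp1 are counted below but not printed. Tgfb2 and Timp1 are shown as the members with the strongest genotype difference, and Ltbp2 and Thbs4 as the pair most alike across libraries. Capitals mark exact matches, on either strand, to CAGAC (a SMAD binding element), GGAATG (the TEAD motif) and TGANTCA (the AP-1 motif); adjoining matches run together.
Tgfb2, chr1:186705940-186706239, minus strand: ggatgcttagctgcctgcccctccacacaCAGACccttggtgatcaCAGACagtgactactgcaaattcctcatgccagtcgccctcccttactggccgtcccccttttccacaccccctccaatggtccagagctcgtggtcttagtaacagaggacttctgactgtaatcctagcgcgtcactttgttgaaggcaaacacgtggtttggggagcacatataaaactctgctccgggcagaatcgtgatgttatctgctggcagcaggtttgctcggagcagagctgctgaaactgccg
Timp1, chrX:20869916-20870215, plus strand: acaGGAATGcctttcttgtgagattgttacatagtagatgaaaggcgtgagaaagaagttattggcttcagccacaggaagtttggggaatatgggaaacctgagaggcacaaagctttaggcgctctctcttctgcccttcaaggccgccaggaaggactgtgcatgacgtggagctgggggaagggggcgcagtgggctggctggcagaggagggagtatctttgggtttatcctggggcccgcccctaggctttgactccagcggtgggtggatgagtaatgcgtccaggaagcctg
Ltbp2, chr12:84876442-84876741, minus strand: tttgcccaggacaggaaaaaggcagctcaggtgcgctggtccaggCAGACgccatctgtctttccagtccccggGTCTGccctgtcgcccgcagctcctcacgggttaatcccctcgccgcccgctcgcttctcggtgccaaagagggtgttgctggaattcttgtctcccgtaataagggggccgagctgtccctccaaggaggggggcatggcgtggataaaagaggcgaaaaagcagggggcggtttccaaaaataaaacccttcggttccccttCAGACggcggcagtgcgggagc
Thbs4, chr13:92794769-92795068, minus strand: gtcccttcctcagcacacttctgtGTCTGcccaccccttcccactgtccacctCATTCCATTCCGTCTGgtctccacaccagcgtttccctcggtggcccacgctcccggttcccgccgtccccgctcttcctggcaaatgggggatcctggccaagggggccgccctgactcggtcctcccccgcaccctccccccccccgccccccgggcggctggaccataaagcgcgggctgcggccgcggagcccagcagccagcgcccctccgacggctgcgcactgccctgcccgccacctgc
CAGAC was present in 6 of the 8 windows and in 49.6% of all 32851 promoter windows of that length. GGAATG was present in 2 of the 8, those of Timp1 and Thbs4, and in 14.7% of all windows. TGANTCA was present in 0 of the 8 and in 7.81% of all windows. In Thbs4, a pair of overlapping GGAATG matches on the opposite strand began at positions -197 and -192 from the start. The Tgfb2 window held CAGAC at positions -221 and -204.

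The gene columns of the count table did not carry the right library names, and each value below uses a repaired assignment. Each column of the separate lncRNA table was given the gene column with which it correlated best over 389 autosomal transcripts present in both tables. All 64 pairs were best in both directions, with r from 0.69 to 0.83, against at most 0.41 for a second best column, and 1 pair carried the same name in both tables. After the repair 0 libraries went against their labelled sex or genotype, while by name 45 did. Tnnt2, the cardiac troponin T gene, ran from 6903 to 12001 CPM (counts scaled by library size) in TG libraries and from 2665 to 3428 in nTG libraries. Library totals ran from 34.6 M to 67.1 M counts, with a median of 48.0 M. In marker genes 4 libraries stood apart. TG trained male replicate 4 and nTG sedentary male replicate 5 had the highest sums over 4 detected atrial myocyte genes, 682 and 601 CPM, against at most 317 elsewhere. Nppa, a gene that stressed ventricle also expresses, made up a median of 78.6% of that sum, but both libraries were also highest over the other 3 genes (Sln, Myl7 and Myl4), at 209 and 239 CPM against at most 137. TG sedentary male replicate 5 had the highest sum of 7 blood genes, 4627 CPM, against at most 1177 elsewhere. nTG sedentary female replicate 4 had the highest sum of 6 valve and tendon-like genes, 155 CPM, against at most 88.1 elsewhere.

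Per kilobase of exon, Ccn2 was the most abundant member, at a mean of 25.9 CPM per kb over all libraries. Fn1 followed at 9.55, Tgfb3 at 7.37, Postn at 5.47, Thbs4 at 3.41, Tgfb2 at 3.05 and Ltbp2 at 2.89 CPM per kb. The lowest were Timp1 at 1.88, Lox at 0.868 and Spp1 at 0.337 CPM per kb. Spp1 rested on 5 to 101 reads a library and Timp1 on 31 to 281, so their values carry the largest counting error. Fn1 rested on 2930 to 11357 reads.

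The transgene went with higher levels of both ligands, of Postn, Fn1 and Timp1 in sedentary male hearts. In that comparison 5 of the 10 members passed the threshold of an adjusted p of 0.05, all of them higher in TG, where 20.6% of all genes passed and 9.39% passed as higher (edgeR quasi-likelihood test, Benjamini-Hochberg adjustment over 16913 genes). All 10 members had a positive log2 fold change, against 48.9% of all genes, and their median was 0.52 against -0.0052 over all genes. The members were chosen with earlier results of these data known and vary together across libraries. Their counts beside the shares of all genes are therefore a description and no test of the set. In trained males 2 members passed, both higher, where 14.0% of all genes passed and 5.65% passed as higher. In females no member passed: 0 of 10 in sedentary mice, where 4.37% of all genes passed and 1 member had an unadjusted p under 0.05, and 0 of 10 in trained mice, where 14.8% passed and 5 members had such a p. DESeq2 also called 0 members in both female comparisons, among 851 and 2560 genes called. The female counts depended on the fit: with the spread estimated only from the groups compared, 1 member (Tgfb2, adjusted p = 0.0434) was called in sedentary females and 4 (Tgfb2, Tgfb3, Postn and Timp1, adjusted p from 0.0103 to 0.0397) in trained females, among 367 and 2467 genes called of 16913. Read by the names on the gene columns, without the repair, the test called 0 of 16913 genes, and so 0 members, in each of these 4 comparisons.

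**Figure D1:**
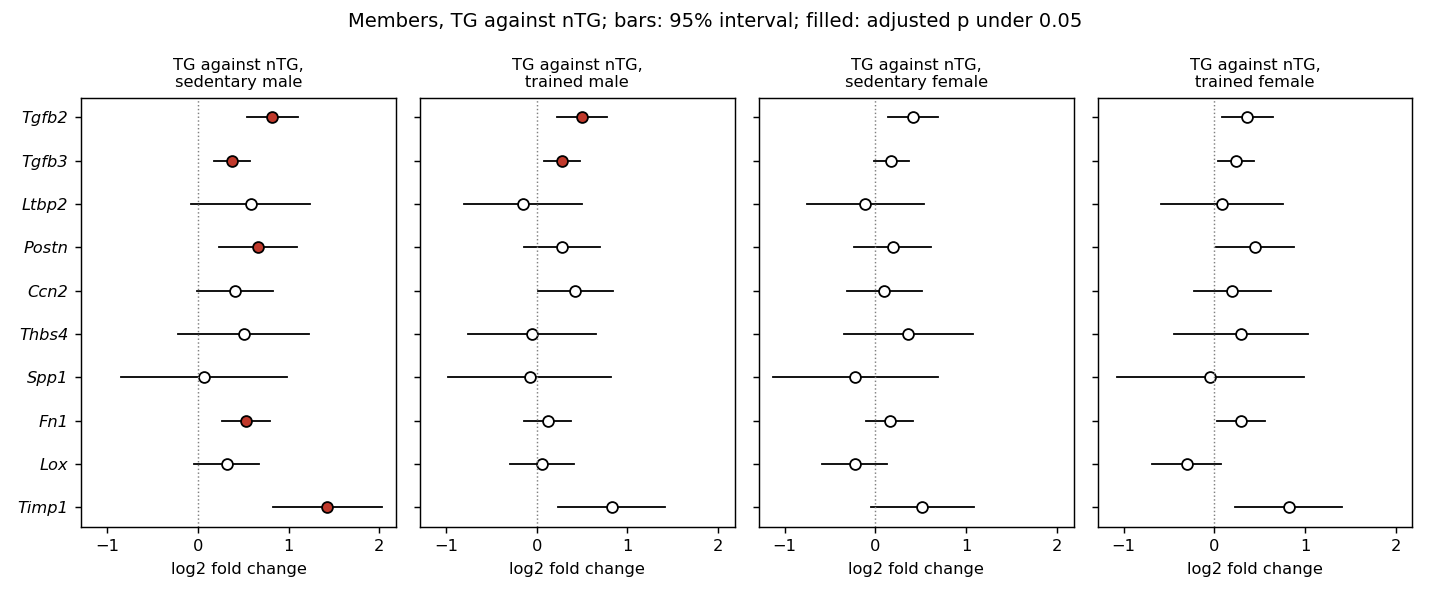
Log2 fold change (x axis) of each member, TG against nTG, in the 4 combinations of sex and training; points are edgeR estimates, bars 95% intervals, and filled points have an adjusted p under 0.05. In sedentary males 5 members are filled and all 10 lie above 0, while no member is filled in females.

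Tgfb2 (ENSMUSG00000039239, chr1:186622792-186705989, minus strand, GRCm38) encodes a ligand expressed in heart development and again under load, and it showed the clearest difference. In sedentary males it ran from 15.8 to 34.7 CPM in TG hearts, with a median of 20.8, and from 10.996 to 16.9 with a median of 13.2 in nTG hearts. The groups overlapped, but 7 of 9 TG libraries lay above every nTG library. The log2 fold change was 0.82 ± 0.14 (SE), adjusted p = 2.28e-05. In trained males the range was 15.0 to 37.4 CPM in TG and 13.0 to 18.4 in nTG, with medians of 18.7 and 14.3. All 8 TG libraries lay above the nTG median, with a log2 fold change of 0.50 ± 0.14 and adjusted p = 0.00938. That call was lost without TG trained male replicate 4, the library at 37.4 CPM, where the log2 fold change was 0.33 with adjusted p = 0.0881. In sedentary females TG hearts ran from 15.7 to 24.6 CPM and nTG hearts from 11.6 to 18.9, with medians of 20.1 and 14.3. All 8 TG libraries again lay above the nTG median, at a log2 fold change of 0.41 ± 0.14 with adjusted p = 0.0786. Trained females gave 15.7 to 23.5 CPM in TG and 11.6 to 20.7 in nTG, a log2 fold change of 0.36 ± 0.14 and adjusted p = 0.0749. Over the 4 comparisons, 31 of 31 TG libraries lay above the nTG median of their own sex and training.

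Tgfb3 (ENSMUSG00000021253, chr12:86056745-86079041), the other ligand, differed less but in the same direction. In sedentary males it ran from 22.3 to 37.8 CPM in TG hearts, median 29.6, and from 19.4 to 31.8 in nTG hearts, median 20.9. All 9 TG libraries lay above the nTG median, though only 3 lay above every nTG library, and the log2 fold change was 0.37 ± 0.10, adjusted p = 0.00481. In trained males the log2 fold change was 0.28 ± 0.10 with adjusted p = 0.0498, which lies at the threshold. Leaving out 1 library at a time kept that call in 9 of 16 fits, and the call was also lost with RLE scaling (adjusted p = 0.0513), the replicate block (0.0582) and only the groups compared (0.0920). The log2 fold change was 0.18 with adjusted p = 0.259 without TG trained male replicate 4. The female log2 fold changes were 0.18 ± 0.10 in sedentary and 0.24 ± 0.10 in trained mice, with adjusted p of 0.389 and 0.1005. Over all comparisons, 29 of 31 TG libraries lay above the nTG median of their sex and training.

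Ltbp2 is a fibrillin-binding relative of the latent TGF-beta binding proteins that does not itself bind the latent ligand. It had wide groups: 10.9 to 40.4 CPM in TG and 9.76 to 35.7 in nTG sedentary males, with medians of 33.6 and 19.7. The groups overlapped, with 4 of 9 TG libraries above every nTG library, and the log2 fold change of 0.58 ± 0.34 had an adjusted p of 0.229. The other log2 fold changes were -0.15 ± 0.33 in trained males, and in females -0.11 ± 0.33 (sedentary) and 0.09 ± 0.34 (trained). In trained males it ran from -0.53, without TG trained male replicate 4, to -0.0032, without nTG trained male replicate 2, and in trained females it turned to -0.037 without TG trained female replicate 4. The 95% interval in sedentary males reached from -0.079 to 1.24 and that in trained males from -0.80 to 0.50, so the spread between libraries limits what can be read from Ltbp2.

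Postn (ENSMUSG00000027750, chr3:54361109-54391037), a matricellular protein made by activated fibroblasts, ran from 30.3 to 76.8 CPM in sedentary male TG hearts and from 26.1 to 48.7 in nTG hearts, with medians of 57.8 and 35.0. Of 9 TG libraries, 7 lay above every nTG library and the other 2 below the nTG median. The log2 fold change was 0.66 ± 0.22, adjusted p = 0.0232. It rose to 0.0623 without nTG sedentary male replicate 2, and the call was also lost without nTG replicate 4, nTG replicate 7 or TG replicate 5 of the sedentary males, so 12 of 16 such fits kept it. In trained males the log2 fold change was 0.28 ± 0.21, and 0.0019 without TG trained male replicate 4. That library was at 114 CPM, while the median of its group was 39.7 and that of the nTG group 39.6. In females the log2 fold changes were 0.19 ± 0.21 and 0.45 ± 0.22, with adjusted p of 0.745 and 0.160. They were 0.094 without nTG sedentary female replicate 8 and 0.28 without TG trained female replicate 3.

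Ccn2, formerly connective tissue growth factor, is a SMAD and YAP target. It ran from 62.9 to 135 CPM in sedentary male TG hearts and from 49.3 to 121 in nTG hearts, with medians of 97.2 and 60.7. All 9 TG libraries exceeded the nTG median, but the nTG library at 121 CPM, replicate 5, reached into the upper TG values, and the log2 fold change of 0.41 ± 0.21 had an adjusted p of 0.172. Without that library it was 0.61 with adjusted p = 0.0363. The log2 fold changes were 0.43 ± 0.21 in trained males, and in females 0.09 ± 0.21 (sedentary) and 0.20 ± 0.22 (trained), none past the threshold. In trained males it was 0.26 with adjusted p = 0.492 without TG trained male replicate 4, in trained females -0.021 without TG trained female replicate 3, and in sedentary ones -0.0033 without nTG sedentary female replicate 8.

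Thbs4, a thrombospondin of tendon and stressed muscle, ran from 4.70 to 36.5 CPM in sedentary male TG hearts and from 4.00 to 19.9 in nTG hearts, with medians of 12.1 and 9.91. The TG value of 36.5 came from replicate 9, and the next TG library was at 19.4. The log2 fold change of 0.50 ± 0.37 had an adjusted p of 0.358, and it was 0.20 with adjusted p = 0.752 without replicate 9. Those of the other 3 comparisons lay between -0.05 and 0.36. Spp1, osteopontin, a cytokine of macrophages and mineralising cells, had the lowest counts. Its medians in sedentary males were 0.606 CPM in TG and 0.612 in nTG, with a log2 fold change of 0.07 and a 95% interval from -0.85 to 0.98. Changes within that interval were not detectable at this depth and spread. Spp1 was the only member for which fewer than 15 of 31 TG libraries, 13, lay above the nTG median of their own sex and training.

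Fn1 (ENSMUSG00000026193, chr1:71585520-71653200) encodes fibronectin, the fibre on which other matrix proteins assemble. In sedentary males it ran from 96.1 to 187 CPM in TG hearts and from 82.8 to 122 in nTG hearts, with medians of 140 and 86.2. Of 9 TG libraries, 6 lay above every nTG library, and the log2 fold change was 0.54 ± 0.14, adjusted p = 0.00255. The other comparisons gave 0.12 ± 0.13 in trained males, and in females 0.16 ± 0.13 (sedentary) and 0.29 ± 0.14 (trained), with adjusted p of 0.602, 0.628 and 0.140. In trained males it turned to -0.029 without TG trained male replicate 4, the library at 172 CPM. Lox, which crosslinks collagen and elastin, gave 0.32 ± 0.18 and 0.06 ± 0.18 in sedentary and trained males, and -0.23 ± 0.19 and -0.31 ± 0.19 in sedentary and trained females. No genotype comparison of Lox passed the threshold, the lowest adjusted p being 0.224.

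Timp1 (ENSMUSG00000001131, chrX:20870166-20874735), an inhibitor of matrix metalloproteinases, had the largest fold change of the 10 in each of the 4 genotype comparisons. In sedentary males it ran from 0.788 to 4.62 CPM in TG hearts and from 0.551 to 1.97 in nTG hearts, with medians of 2.73 and 0.912. Of 9 TG libraries, 7 lay above every nTG library, and the log2 fold change was 1.43 ± 0.31, a 2.69-fold difference, adjusted p = 4.26e-04. Leaving out 1 library at a time kept the call in 16 of 16 fits. In trained males the range was 1.02 to 5.10 CPM in TG and 0.701 to 1.32 in nTG. The log2 fold change of 0.83 ± 0.30 had an adjusted p of 0.0540, and without TG trained male replicate 4, the library at 5.10, it was 0.41 with adjusted p = 0.402. It passed in DESeq2 (adjusted p = 0.0422), among genes averaging at least 50 counts (0.0432) and without TG trained male replicate 1, 3, 7 or 8 (0.0339 to 0.0475). In sedentary females the log2 fold change was 0.52 ± 0.29, adjusted p = 0.386. In trained females TG libraries ran from 1.32 to 3.90 CPM and nTG libraries from 0.793 to 1.32, so the ranges met at 1.32. The log2 fold change of 0.82 ± 0.30 had an adjusted p of 0.0531. Without TG trained female replicate 3, the library at 3.90, it was 0.51 with adjusted p = 0.296. It passed with only the groups compared (0.0103), among genes averaging at least 50 counts (0.0450), without the 3 libraries high in atrial or blood genes (0.0179) and without TG replicate 2, 4 or 5 or nTG replicate 4 (0.0450 to 0.0490).

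**Figure D2:**
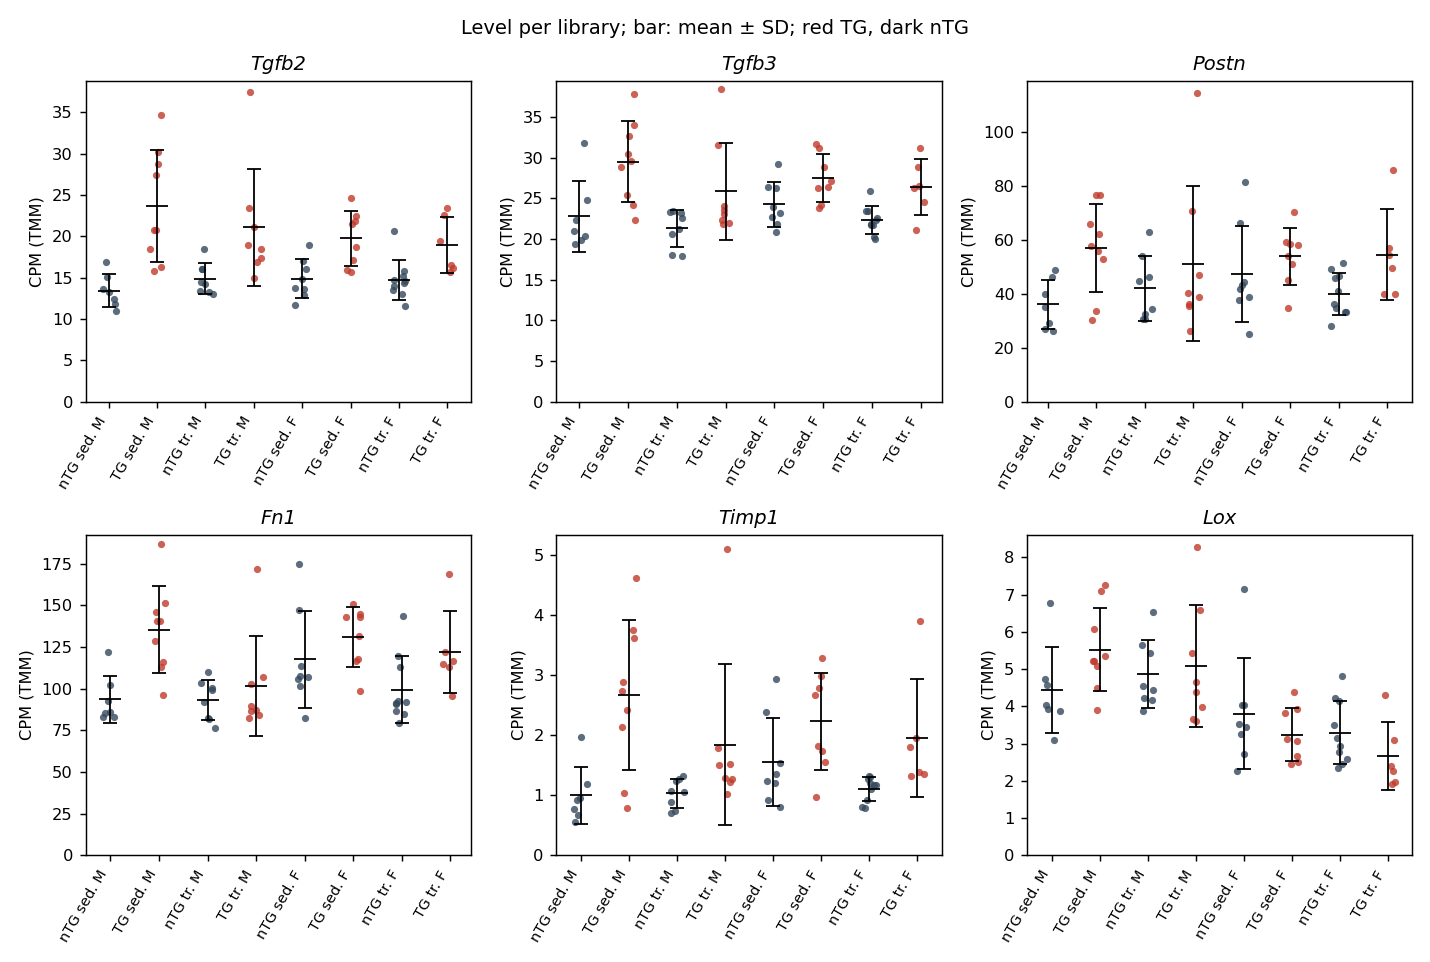
CPM (TMM scaled, linear axis from 0) of 6 members in each of the 64 libraries, by group; points are libraries, bars the mean ± SD. Tgfb2 is higher in all TG groups, and TG trained male replicate 4 is the highest point of its group for all 6 genes shown.

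Cell type markers moved with genotype in the same hearts. In sedentary males 9 of 10 fibroblast markers and 11 of 12 macrophage markers were higher in TG, and 6 of 10 cardiomyocyte markers were lower, where 9.39% of all genes were higher and 11.2% lower. The summed fibroblast markers ran from 2137 to 2971 CPM in TG and from 1793 to 2638 in nTG, and the macrophage sum from 298 to 514 in TG and 228 to 321 in nTG. In sedentary females 2 of 10 fibroblast markers and 0 of 12 macrophage markers passed as higher, where 1.58% of all genes did. In trained males 7 of 10 and 8 of 12 passed as higher (5.65% of all genes), and in trained females 6 of 10 and 9 of 12 (5.37%). In trained males 5 of 7 blood markers were lower in TG, where 8.31% of all genes were. In trained females 1 of 7 was, with the blood sum at 344 to 611 CPM in TG (median 413) and 578 to 801 in nTG (690). In sedentary males 1 of 10 smooth muscle and pericyte markers was lower, with sums of 1364 to 1759 CPM (median 1466) in TG and 1534 to 1904 (1694) in nTG. There 0 of 4 atrial markers passed, with sums of 35.2 to 315 CPM (median 214) in TG and 29.8 to 601 (90.9) in nTG. The part of these cells in the members' differences was not tested, and in whole tissue more cells of a type and more RNA per cell cannot be told apart. Without the 3 libraries that stood apart in atrial or blood genes, an alternative chosen after seeing the data, the test again called 5 members in sedentary males, among 3304 genes called. The count was 0 in males that trained, among 1752 genes called, and 1 and 3 in the sedentary and trained females, among 838 and 2606. Without nTG sedentary female replicate 4, the library high in valve genes, 1 member was called in sedentary females (Tgfb2 at 0.47, adjusted p = 0.0386), and the log2 fold changes turned from -0.11 to 0.24 for Ltbp2 and from -0.22 to 0.30 for Spp1.

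Training was compared within each genotype and sex. In TG males Fn1 was lower after training: trained hearts ran from 82.5 to 172 CPM, median 88.5, and sedentary ones from 96.1 to 187, median 140. Of 8 trained libraries, 5 lay below every sedentary library, and the log2 fold change was -0.42 ± 0.13, adjusted p = 0.0196. This was 1 of 10 members called, where 18.0% of all genes passed and 7.60% passed as lower. Leaving out 1 library moved the number of genes called from 3036 to between 1702, without TG trained male replicate 7, and 4061, without TG trained male replicate 4. Without TG sedentary male replicate 5 it was -0.35 with adjusted p = 0.0571, and without TG trained male replicate 7 it was -0.39 with adjusted p = 0.0501.

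The count of members depended on TG trained male replicate 4. Without it 5 members were called, among those 4061 genes, all lower in trained hearts: Fn1 at -0.58, Timp1 at -0.98 (adjusted p = 0.00598), Tgfb3 at -0.30 (0.0134), Tgfb2 at -0.35 (0.0347) and Ltbp2 at -0.84 (0.0465), all as log2 fold change. With it, the same fold changes were -0.55 ± 0.28 for Timp1, -0.19 ± 0.10 for Tgfb3, -0.17 ± 0.13 for Tgfb2 and -0.45 ± 0.32 for Ltbp2, with adjusted p of 0.165, 0.163, 0.399 and 0.350. Without the 3 libraries high in atrial or blood genes, 3 members were called, among 3444 genes. With all libraries 9 of 10 members had a negative log2 fold change, with a median of -0.19 against 6.72e-05 over all genes. The exception was Spp1 at 0.06. In the same comparison 4 of 10 fibroblast, 5 of 12 macrophage and 6 of 7 blood markers were lower in trained TG males, where 7.60% of all genes were; the part of these in the members' values was not tested.

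In nTG males 0 of 10 members passed, where 0% of all genes did, and none had an unadjusted p under 0.05. In nTG females 0 of 10 passed, where 0.148% of all genes did (25, and 0 to 62 when 1 library was left out). There 1 member had an unadjusted p under 0.05, Spp1, at -1.04 ± 0.45 with adjusted p = 0.277, and at -0.53 with adjusted p = 0.683 without nTG sedentary female replicate 4. In TG females 0 of 10 passed, where 0% of all genes did, 0 had an unadjusted p under 0.05, and the fold changes ran from -0.86 for Spp1 to 0.11 for Ccn2. DESeq2 called 0 members in each of these 3 comparisons, among 4, 95 and 0 genes called. The 95% intervals of Fn1 were -0.27 to 0.27 in nTG males, -0.49 to 0.0059 in nTG females and -0.38 to 0.18 in TG females. Whether the effect of training differed between genotypes was tested directly: 0 of 10 members passed in either sex with edgeR, where 0% of genes did, or with DESeq2, which called 1 gene in males and 0 in females, and 1 member in males and 0 in females had an unadjusted p under 0.05. That member was Fn1, at -0.41 ± 0.19 with adjusted p = 0.298. In TG mice the effect of training did not pass a test of a difference between sexes for any member with edgeR, where 0% of genes passed and 0 members had an unadjusted p under 0.05, or with DESeq2, which called 166 genes. There edgeR called 416 to 904 genes and 0 members without TG sedentary female replicate 4, TG trained male replicate 4 or TG trained female replicate 6.

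**Figure D3:**
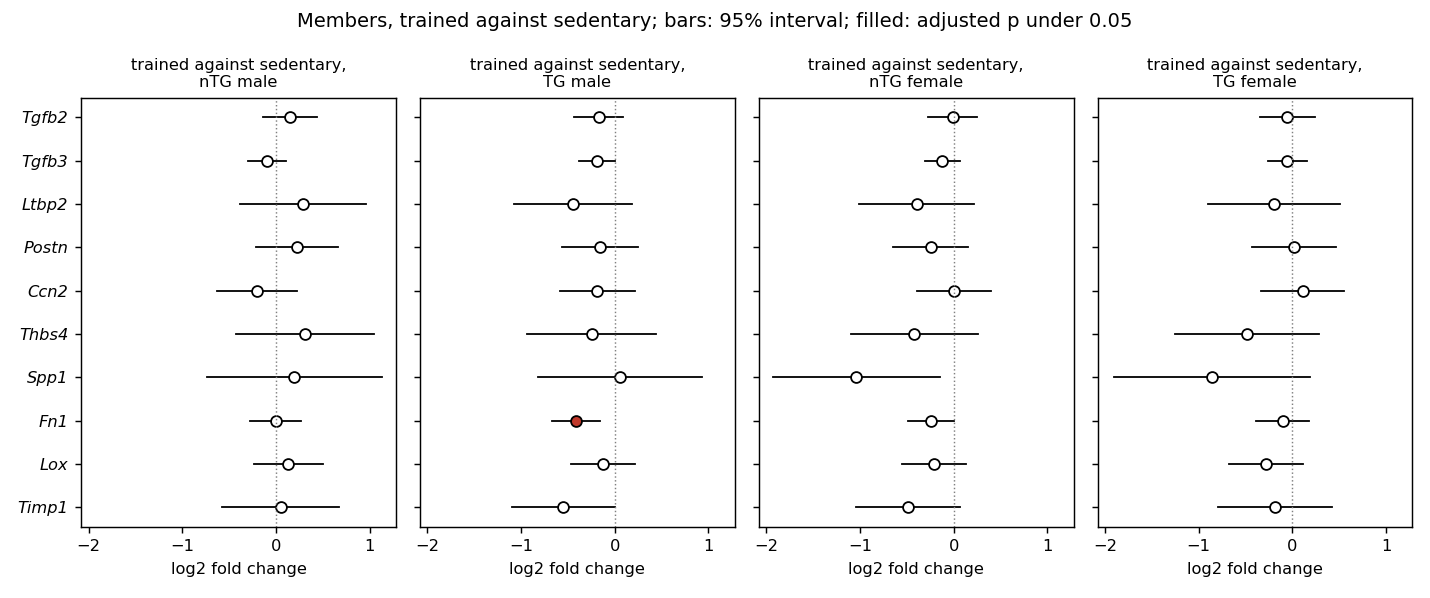
Log2 fold change (x axis) of each member, trained against sedentary, in each genotype and sex; points are edgeR estimates, bars 95% intervals, and the filled point has an adjusted p under 0.05. Fn1 in TG males is the only filled point, and 9 of 10 members lie below 0 there.

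Between sexes, only sedentary hearts were compared, and Lox was lower in females among the TG ones. Female TG libraries ran from 2.46 to 4.38 CPM, median 3.09, and male ones from 3.91 to 7.25, median 5.22. Of 8 female libraries, 6 lay below every male library and none reached the male median, at a log2 fold change of -0.77 ± 0.18 and adjusted p = 0.00727. This was 1 of 10 members called, where 3.83% of all genes passed and 2.25% passed as lower in females. The 647 genes called became 284 without TG sedentary female replicate 7, 359 without TG sedentary male replicate 2 and 283 with only the groups compared. The call was kept in 17 of 17 fits that left out 1 library. All 10 members had a negative fold change in TG hearts, where 50.6% of all genes had a positive one, and in nTG hearts 8 of 10 members had a positive one. In sedentary nTG hearts 0 of 10 members passed, where 2.22% of all genes did (375, and 204 without nTG sedentary female replicate 4), 2 members had an unadjusted p under 0.05, DESeq2 called 0, and the Lox log2 fold change was -0.22 ± 0.19. In trained hearts, where the sexes were not tested against each other, Lox averaged 2.66 CPM in female and 5.07 in male TG hearts. In trained nTG hearts it averaged 3.29 CPM in females and 4.86 in males. The lower Lox of females is thus not particular to sedentary TG hearts in these means. Among the sedentary TG hearts 6 of 7 blood markers were also lower in females, where 2.25% of all genes were, and their part in the Lox value was not tested. The genotype, training and sex comparisons share groups, so their values are not independent of each other.

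The difference of the genotype effect between sexes was tested as an interaction. In sedentary mice all 10 members had a lower signed log2 fold change (TG against nTG) in females than in males, with a median difference of -0.40. Yet 0 of 10 passed with edgeR, where 0% of all genes did, or with DESeq2, which called 1 gene. Of these, 4 had an unadjusted p under 0.05: Timp1 at -0.91 ± 0.42, Lox at -0.55 ± 0.26, Tgfb2 at -0.41 ± 0.20 and Fn1 at -0.38 ± 0.19, with adjusted p from 0.542 to 0.574. In trained mice the interaction ran from -0.36 for Lox to 0.35 for Thbs4, with 0 of 10 called by edgeR or DESeq2, each of which called 0% of genes, and 0 under 0.05 unadjusted. A genotype effect that passed in males and not in females was therefore not shown to differ between them.

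Within groups, members rose and fell together from library to library. Over the 64 libraries with group means removed, all 45 pairs of members had a positive Pearson r, from 0.34 to 0.86 with a median of 0.63. The closest pair was Ltbp2 with Thbs4 at 0.86, followed by Thbs4 with Spp1 at 0.81, and the most distant was Tgfb2 with Spp1 at 0.34. All members of a library share its tissue composition and scaling, and marker sums varied between libraries. The values therefore describe covariation only. Among single libraries, nTG sedentary male replicate 5 was the highest of its group for 10 of 10 members, TG trained male replicate 4 for 9, and nTG sedentary female replicate 8 was the lowest of its group for 10 of 10.

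**Figure D4:**
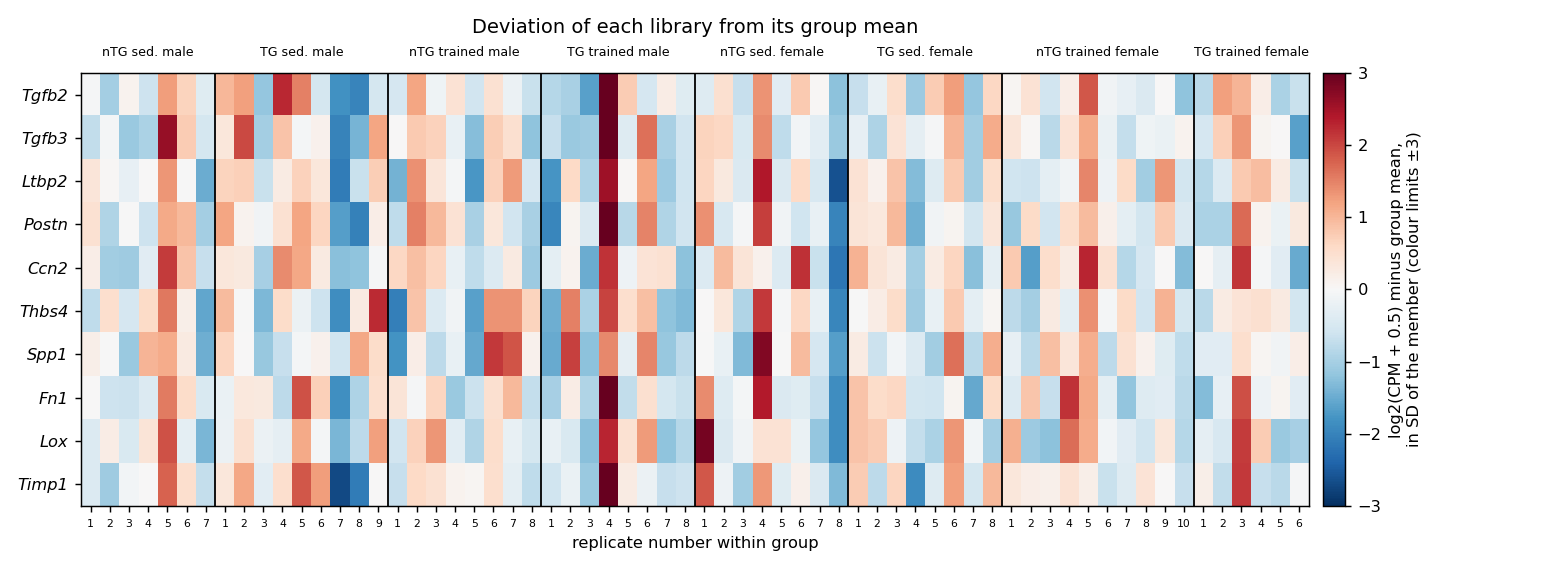
Each member (rows) in each library (columns, by group), as its log2(CPM + 0.5) minus the group mean in units of the member's SD; red is above and blue below the group mean, and colours saturate at the ends of the scale. nTG sedentary male replicate 5 and TG trained male replicate 4 are red, and nTG sedentary female replicate 8 blue, in nearly all rows.

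All 10 members had a positive r with the fibroblast sum across libraries, with group means removed, from 0.54 to 0.78. The markers with the highest r varied among members, and differences between r values were not tested. Thbs4, Ltbp2 and Spp1 followed the 6 detected valve and tendon-like markers, at r of 0.88, 0.84 and 0.83. Timp1 and Fn1 followed the macrophage sum, at 0.78 and 0.72, and Tgfb3, Tgfb2 and Ccn2 the fibroblast sum, at 0.78, 0.72 and 0.72. Spp1, although known as a macrophage product, had an r of 0.30 with the macrophage sum. Postn was closest to the atrial sum, at 0.72, but that sum is mostly Nppa: the r of Postn was 0.76 with Nppa alone and 0.49 with the sum of Sln, Myl7 and Myl4. Over the 10 members the r ran from 0.34 to 0.76 with Nppa and from 0.31 to 0.56 with the other 3 genes. Nppa and those genes also parted, as in TG sedentary male replicates 1 and 2, with Nppa at 288 and 212 CPM and the other 3 genes at 1.72 and 1.36 CPM together. The cardiomyocyte sum had a negative r with all 10 members, from -0.70 for Fn1 to -0.34 for Thbs4. The r with library total lay between -0.18 and 0.14. The highest valve sum, 155 CPM, was in nTG sedentary female replicate 4, which also had the highest Ltbp2, at 63.6 CPM, and the highest Spp1, at 2.10 CPM. The lowest, 13.6 CPM, was in nTG sedentary female replicate 8. Whether valve or atrial tissue had a part in these values was not tested.

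**Figure D5:**
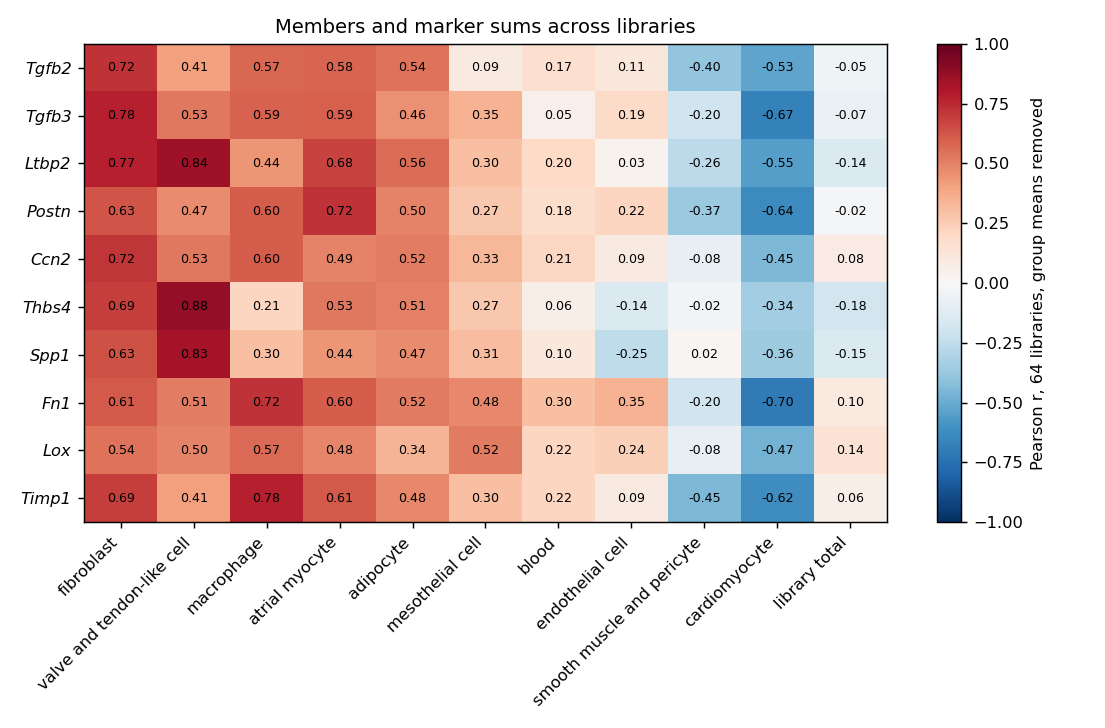
Pearson r over 64 libraries, group means removed, between each member (rows) and the summed markers of a cell type or the library total (columns). Thbs4, Ltbp2 and Spp1 are strongest with the valve and tendon-like markers, and all members are negative with the cardiomyocyte markers; the atrial column is mostly Nppa.

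Among 12151 other genes with a mean of at least 50 counts, the most alike were ranked by Pearson r of log2 CPM over the 64 libraries, which share their groups and scaling. Closest to Tgfb2 was Rtn4 at r = 0.91, to Tgfb3 Lrp1 at 0.89, to Fn1 Adamts2 at 0.91, to Timp1 Mmp2 at 0.88 and to Postn Fstl1 at 0.88. Closest to Ltbp2 was Prg4 at 0.85, to Thbs4 Col12a1 at 0.85 and to Spp1 Fmod at 0.76. Comp, a cartilage and tendon matrix protein, was among the 3 closest genes of Ltbp2, Thbs4 and Spp1. Ccn2 was closest to Cebpd at 0.81 and Lox to Ccn5 at 0.81.

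Other genes of the same pathways, from lists chosen by function with earlier results of these data known, were counted without the members. The lists share genes, so their counts are not separate results. Tnc is in both the matricellular and the activated fibroblast list, and Mmp2, Pcolce and Col1a2 are also among the fibroblast markers above. In sedentary males the TGF-beta list had 5 of 19 genes higher and 0 lower in TG, where 9.39% of all genes were higher and 11.2% lower. They included Bambi, a decoy receptor, at a log2 fold change of 0.40, and Inhba, an activin subunit, at 0.68. The latency list had 4 of 13 higher and 2 lower, with Emilin1 at 0.55 and Ltbp1 at -0.24. The matricellular list had 8 of 23 higher and 0 lower, led by Tnc, tenascin C, a 3.36-fold difference, and Cilp, a 2.56-fold one. The crosslinking list had 6 of 14 higher and 0 lower, among them Loxl1 and Pcolce. The list of TIMPs and metalloproteinases had 6 of 18 higher and 1 lower, with Mmp2, the gelatinase most like Timp1 across libraries, 1.83-fold higher. The list of fibronectin and osteopontin receptors had 5 of 14 higher and 1 lower. The activated fibroblast list had 11 of 17 higher and 0 lower, with Scx 1.66-fold and Col1a2 1.54-fold higher. The YAP and TEAD list, which includes Ccn2, had 2 of 11 others higher, among them Axl, and 2 lower, among them Amotl2.

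In the other genotype comparisons each of the 8 lists had fewer genes past the threshold than in sedentary males. The TGF-beta list had 1 of 19 higher in males that trained, and 1 and 3 in the sedentary and trained females, with 0 lower in each; 8.31%, 2.78% and 9.43% of all genes were lower and 5.65%, 1.58% and 5.37% higher. In the same order of comparisons, the activated fibroblast list had 2, 1 and 5 of 17 higher, the matricellular list 4, 1 and 2 of 23, and the metalloproteinase list 2, 1 and 2 of 18, each with 0 lower. The latency list had 1, 0 and 2 of 13 higher and 0, 1 and 1 lower, and the crosslinking list 0, 0 and 2 of 14 higher and 1, 0 and 0 lower. The receptor list had 3, 1 and 1 of 14 higher and 1, 2 and 2 lower, and the YAP and TEAD list 0, 0 and 1 of 11 higher and 0 lower. Mmp2 passed in all 4 comparisons, at 1.49-fold, 1.40-fold and 1.40-fold in these 3. In trained males 1 TG library was at 194 CPM, against a TG median of 80.1 and an nTG median of 66.4, and without the 3 libraries high in atrial or blood genes the difference was 1.27-fold with adjusted p = 0.0351. Tnc and Col1a2 passed in trained males with all libraries and not without those 3, at adjusted p of 0.0913 and 0.210. In trained against sedentary TG males the TGF-beta list had 8 of 19 lower and 1 higher, where 7.60% of all genes were lower and 10.3% higher. The genes that fell were Tgfb1, Eng, Acvrl1, Smad6, Smad7, Ski, Smurf1 and Gdf15, and Tgfbr1 rose. The crosslinking list had 6 of 14 lower and 1 higher, with Loxl1 at 0.747 of its sedentary level and Pcolce at 0.775, and the latency list 4 of 13 lower and 0 higher. The activated fibroblast list had 5 of 17 lower and 0 higher, the matricellular list 4 of 23 lower and 1 higher, and the metalloproteinase list 2 of 18 lower and 1 higher. The receptor list had 0 of 14 lower and 1 higher, and the YAP and TEAD list 0 of 11 in either direction. These training counts are with all libraries and depend on them. Without the 3 libraries high in atrial or blood genes, Tgfbr2 of the TGF-beta list also passed as lower (log2 fold change -0.18, adjusted p = 0.0323).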

How the data were processed

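The authors deposited whole-number counts per gene for 64 libraries, not normalized. A separate table of estimated counts per lncRNA, deposited by the authors with fractional values in 45 of 3787 rows, served only to repair library names. Per the submitters' processing notes, the tools were cutadapt 2.3, FastQC 0.11.8, MultiQC 1.7, STAR 2.7.8a and RSEM 1.3.3, with build GRCm38 (mm10); strand and multi-mapping settings are not given in the sources used here. Gene names came from GENCODE M21 (16887 of 16913 IDs had a symbol). Columns were paired as the report says, on centred log2(CPM + 0.5) of transcripts with a mean of at least 20 counts. The main test was the edgeR 4.0.16 quasi-likelihood test (limma 3.58.1, R 4.3.3) with TMM scaling and filterByExpr, which removed no gene, on 8 group means in 1 model, with Benjamini-Hochberg adjustment over all genes. SE is the log2 fold change over the root of F, and 95% intervals are 1.96 SE to each side. The edgeR code was run on simulated counts with the same dispersion for all genes, unlike these data. The pairing code was run on these gene columns after shuffling. Both runs check the code only, not the results. Alternatives were DESeq2 1.42.0, RLE scaling, other filters, fits of only the groups compared, a replicate block, columns by name and each library left out. Named genes were all 10 members, up to 3 genes of each pathway list with the smallest p among those that passed in sedentary males, and the 3 genes most like each member; genes of the TGF-beta list that fell with training were named after their values were seen. The members and lists were chosen with earlier results of these data known.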

Additional observations from a re-analysis of the deposited data

Results flagged for a closer look

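A total of 16 of 80 tests of 1 member in 1 group found a library far above the others of its group (Dixon's test at the 95% level), where about 1 in 20, or 4, arise by chance; the tests share libraries. TG trained male replicate 4 gave 5 of them: Tgfb2 at 37.4 CPM (others at most 23.4), Ltbp2 at 59.8 (32.4), Ccn2 at 145 (88.6), Fn1 at 172 (107) and Timp1 at 5.10 (1.79). TG trained female replicate 3 gave 4: Postn at 86.1 CPM (others at most 57.1), Ccn2 at 136 (74.3), Fn1 at 169 (122) and Timp1 at 3.90 (1.94). In nTG sedentary female replicate 4, Ltbp2 was at 63.6 CPM (others at most 28.7), Thbs4 at 25.5 (12.2) and Spp1 at 2.10 (0.936). In nTG trained female replicate 5, Tgfb2 was at 20.7 CPM (others at most 15.8) and Ccn2 at 123 (81.0). Thbs4 was at 36.5 CPM in TG sedentary male replicate 9 (others at most 19.4), and Lox at 7.15 CPM in nTG sedentary female replicate 1 (others at most 4.04).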

How the results depend on the processing

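Of 2380 member values under other settings, 2170 kept their direction and their side of the threshold, 26 lost and 31 gained the call, and 153 changed sign, 151 of these with neither fit past the threshold; no cause of a change was tested. Leaving out 1 library turned or moved by over 1.5 times 2 of the 9 called values and 75 of the 91 others. In sedentary males 5 members were called under each setting tried except by name, where 0 were, and 4 to 6 when 1 library was left out. In trained males the count was 1 with RLE, with the replicate block and with only the groups compared, 3 with DESeq2 and with a mean of at least 50 counts, 0 by name and 0 without the 3 libraries (chosen after seeing the data), and 0 to 3 leaving out 1 library. In sedentary females it was 1 with the replicate block, with only the groups compared and without the 3 libraries, and in trained females 1 with a mean of at least 50 counts, 4 with only the groups compared and 3 without the 3 libraries; leaving out 1 library gave 0 to 1 in both. Training in TG males gave 0 by name, 3 without the 3 libraries and 0 to 5 leaving out 1 library. Female against male gave 1 in nTG mice without the 3 libraries (Fn1, 0.41) and 0 by name in TG mice. Replicate numbers were not taken to pair the libraries: of 73 same-number pairs 4 correlated above 0.1 (range -0.17 to 0.20), and 6 matched best with their own number; with the block Tgfb3 in trained males had adjusted p = 0.0582 and Tgfb2 in sedentary females 0.0446. Genotype, training and sex below mean TG against nTG, trained against sedentary and female against male. The low counts of Spp1 and Timp1 and 6 to 10 libraries a group limit precision. With gene columns read by name, opposite signs were given (log2) in genotype, sedentary male by Ccn2 (-0.018). In genotype, trained male they were given by Tgfb2 (-0.021), Ltbp2 (0.13), Postn (-0.27), Thbs4 (0.15), Spp1 (0.75), Fn1 (-0.15), Timp1 (-0.37). In genotype, sedentary female they were given by Ltbp2 (0.31), Spp1 (0.89), Lox (0.15). In genotype, trained female they were given by Tgfb2 (-0.021), Spp1 (0.95), Lox (0.41), Timp1 (-0.10). In training, nTG male they were given by Tgfb3 (0.28), Ccn2 (0.30), Fn1 (0.44). In training, nTG female they were given by Tgfb2 (0.42), Tgfb3 (0.17), Postn (0.30), Fn1 (0.25), Timp1 (0.63). In training, TG male they were given by Tgfb2 (0.33), Tgfb3 (0.14), Ltbp2 (0.31), Postn (0.12), Ccn2 (0.35), Thbs4 (0.39), Fn1 (0.18), Lox (0.0069), Timp1 (0.53). In training, TG female they were given by Tgfb2 (0.030), Tgfb3 (0.081), Ltbp2 (0.032), Thbs4 (0.10), Fn1 (0.0026), Lox (0.18). In sex, nTG sedentary they were given by Tgfb2 (-0.10), Tgfb3 (-9.9e-05), Postn (-0.070), Fn1 (-0.13), Timp1 (-0.055). In sex, TG sedentary they were given by Tgfb2 (0.066), Tgfb3 (0.011), Ltbp2 (0.011), Ccn2 (0.13), Thbs4 (0.44), Spp1 (0.76), Fn1 (0.045), Timp1 (0.29). Without the 3 libraries high in atrial or blood markers, opposite signs were given (log2) in genotype, trained male by Fn1 (-0.029), Lox (-0.077). In training, nTG male they were given by Tgfb3 (0.0041), Fn1 (0.073). In training, nTG female they were given by Ccn2 (-0.0069). In training, TG male they were given by Spp1 (-0.14). In sex, nTG sedentary they were given by Ccn2 (0.15). In sex, TG sedentary they were given by Fn1 (0.020). With the replicate block, opposite signs were given (log2) in genotype, sedentary female by Ltbp2 (0.057). In genotype, trained female they were given by Ltbp2 (-0.010). In training, nTG male they were given by Fn1 (0.033). In training, nTG female they were given by Tgfb2 (0.039). In training, TG male they were given by Spp1 (-0.10). In training, TG female they were given by Postn (-0.14). In sex, nTG sedentary they were given by Ccn2 (0.013). In sex, TG sedentary they were given by Thbs4 (0.17). Ccn2 in training, nTG female, was -5.4e-04 with RLE, -0.014 with a mean of at least 50 counts, -0.0052 with only the groups compared and -0.0011 with DESeq2. Leaving out 1 library at a time moved the sign within these log2 ranges. For sex, nTG sedentary they were Ccn2 -0.21 to 0.14, Ltbp2 -0.050 to 0.49, Spp1 -0.35 to 0.35, Thbs4 -0.30 to 0.30. For genotype, sedentary female they were Ccn2 -0.0033 to 0.26, Ltbp2 -0.26 to 0.24, Spp1 -0.49 to 0.30. For genotype, trained female they were Ccn2 -0.021 to 0.34, Ltbp2 -0.037 to 0.23, Spp1 -0.17 to 0.13. For training, nTG female they were Ccn2 -0.13 to 0.17, Tgfb2 -0.075 to 0.040. For training, TG female they were Ccn2 -0.13 to 0.22, Postn -0.16 to 0.093, Tgfb3 -0.11 to 0.0011. For sex, TG sedentary they were Fn1 -0.10 to 0.020, Spp1 -0.39 to 0.0092, Thbs4 -0.22 to 0.20. For genotype, trained male they were Fn1 -0.029 to 0.16, Lox -0.077 to 0.13, Spp1 -0.39 to 0.24, Thbs4 -0.32 to 0.093. For training, nTG male they were Fn1 -0.041 to 0.073, Spp1 -0.12 to 0.37, Tgfb3 -0.13 to 0.0041, Timp1 -0.058 to 0.30. For genotype, sedentary male they were Spp1 -0.10 to 0.25. For training, TG male they were Spp1 -0.26 to 0.21, Thbs4 -0.53 to 0.055.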

Other observations

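Tgfb1, the third ligand gene, was not among the 10 genes but was measured in the same hearts. It averaged 50.1 ± 5.38 CPM (SD, n = 9) in TG and 40.4 ± 6.69 (n = 7) in nTG sedentary males, a log2 fold change of 0.31 ± 0.10 (SE) with adjusted p = 0.0161 in edgeR's quasi-likelihood test. In trained TG males it averaged 38.9 ± 6.00 CPM (n = 8), a log2 fold change of -0.36 ± 0.093 against sedentary TG males with adjusted p = 0.00587, and 7 of 8 trained libraries lay below every sedentary one. Gdf15, a stress-induced family member, had a log2 fold change of -0.84 ± 0.25 in the same comparison, adjusted p = 0.0135. Both genes were chosen after their values were seen.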
